A study of Homo sapiens with 6 samples.

Results

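The plasminogen activator system was followed through 7 of its genes in 3 groups of cultured human glioma cells. The genes were chosen by name and with earlier results of these data known. They were PLAU, PLAUR, PLAT, SERPINE2, ANXA2, S100A10 and LRP1, and 18 of the 54675 probe sets on the array carried one of these symbols. Each gene was read from its probe set with the highest mean over the 6 arrays, and all 7 were among the 14513 of 19775 genes that were bright enough to test. The remaining 11 probe sets served as a check. Other components of the system outside the lists given here were not analysed here.

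Cells use this system to make plasmin at their surface. Urokinase, the product of PLAU, is secreted as an inactive chain, binds its receptor PLAUR, a protein held to the membrane by a glycolipid anchor, and cuts plasminogen into plasmin, which degrades fibrin and matrix proteins and frees growth factors. Tissue plasminogen activator, the product of PLAT, does the same on fibrin and on the annexin A2 and S100A10 complex. Protease nexin-1, the product of SERPINE2, blocks both activators, and LRP1 carries activator and inhibitor complexes into the cell. In malignant glioma the urokinase pair is known for its part in the spread of tumour cells through brain tissue.

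The parental group was U87MG, an established human glioblastoma line, in 2 arrays. The other groups, with 2 arrays each, were derivatives of it. U87MGL, described as non-invasive, had arrays titled U87MGL2 and U87MGL3, and U87MGR, described as highly invasive, had arrays titled U87MGR2 and U87MGR3. Both derivatives had been through 4 rounds in which cells were injected into the left striatum of BALB/c nu/nu nude mice that were 6 weeks old, taken back from tumour-bearing brain and returned to culture. All groups were grown in medium with fetal bovine serum before total RNA was taken, and U87MG differs from the derivatives by the passage through mouse brain itself. The labels do not say whether the numbers 2 and 3 mark separate sublines or rounds of passage. In either case the spread within a derivative group holds that difference too.

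The arrays had medians between 5.29 and 5.35 on the log2 scale. VIM and CD44, which cultured glioblastoma cells express strongly, lay at 14.3 to 14.5 and 13.0 to 13.3. NES was less even, at 8.23 and 7.27 in U87MG, 8.80 and 8.98 in U87MGL, and 8.24 and 9.61 in U87MGR. On the log2 scale it differed from U87MG by 1.18 in U87MGR and 1.14 in U87MGL (SE 0.47, limma adjusted p = 0.218 and 0.205). FABP7 lay at 4.89 to 5.76 and OLIG2 at 4.78 to 5.67. The glial marker GFAP lay at only 5.21 to 5.45, SOX2 at 4.77 to 4.96 and S100B at 3.18 to 3.51, near or below the filter level of 4.73. The labels name no batch, so batches were formed by clustering the arrays on their spiked-in control RNA, cut at 3 clusters. This put both U87MGL arrays with U87MGR replicate 1 and U87MG replicate 1 with U87MGR replicate 2, while U87MG replicate 2 stood alone. Over the 21 control probe sets, arrays of the same batch were 0.558 to 1.10 apart and arrays of different batches 3.74 to 6.09. The batches were made from these distances, so the gap between the ranges does not test them. U87MGL and U87MG never fell in the same batch, which leaves no within-batch value for that pair. The 3′ minus 5′ difference of GAPDH, a sign of RNA quality, was 0.24 on the log2 scale in U87MGR replicate 2, where the 5 remaining arrays gave 0.03 to 0.07. The same difference for actin was -0.01 and 0.22 in U87MG and 0.25 to 0.39 on the 4 derivative arrays, so the groups did not overlap.

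PLAU and PLAUR, the members that changed, are shown by the sequence before their transcription starts, so that the pair can be compared for motifs of transcription factors. The RefSeq table for GRCh38.p14 held 2 start windows for PLAU and 1 for PLAUR, each of 300 bases with 250 before the start. Given here are the 250 bases before the downstream PLAU start, chr10:73910882-73911131 on the plus strand, and before the PLAUR start, chr19:43670170-43670419 on the minus strand, both 5′ to 3′, with the motifs found in capitals.
PLAU: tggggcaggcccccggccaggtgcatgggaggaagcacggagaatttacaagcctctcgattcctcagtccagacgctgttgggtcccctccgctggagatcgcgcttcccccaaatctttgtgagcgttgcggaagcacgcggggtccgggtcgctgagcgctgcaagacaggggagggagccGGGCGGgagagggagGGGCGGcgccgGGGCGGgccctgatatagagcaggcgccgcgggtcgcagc
PLAUR: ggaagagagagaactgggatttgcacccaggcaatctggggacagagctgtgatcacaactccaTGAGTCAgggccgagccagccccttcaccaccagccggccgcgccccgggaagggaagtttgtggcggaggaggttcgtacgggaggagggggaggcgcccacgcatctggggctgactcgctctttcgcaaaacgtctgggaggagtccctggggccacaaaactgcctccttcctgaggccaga

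The PLAUR window held 1 match to the AP-1 motif TGANTCA, 186 to 180 bases before the start. This palindromic motif is bound by dimers of Jun and Fos proteins, and it occurred in 7.71% of the 35116 windows of the same length. The PLAU window held 3 matches to the GC box GGGCGG, the first of them 66 to 61 bases before the start. GC boxes, which bind Sp1, occurred in 45.0% of all windows on either strand. No other match was found on either strand in the 3 windows to these motifs or to CCGGAAG (ETS), GGAATG (TEAD), CACGTG (E-box) or the TATA box motif, TATAAA, and the motifs found did not overlap each other. The PLAU and PLAUR windows shared none of the 6 motifs. Sequence outside these windows was not searched, and binding was not measured.

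Urokinase and its receptor were higher in both derivatives than in the parental line, by 2.78 to 4.11-fold, and the derivatives were not told apart from each other in either gene. PLAU lay at log2 signals of 9.82 and 9.70 in U87MG, 11.22 and 12.38 in U87MGL, and 11.71 and 11.72 in U87MGR. All 4 derivative arrays lay above both U87MG arrays, as for 17.1% of all tested genes, and the U87MGR arrays fell between those of U87MGL. In limma, PLAU rose 3.87-fold in U87MGR against U87MG (95% interval 2.21 to 6.76, log2 fold change 1.95, SE 0.34, adjusted p = 0.0357). It rose 4.11-fold in U87MGL against U87MG (95% interval 2.35 to 7.18, log2 fold change 2.04, SE 0.34, adjusted p = 0.0258). The comparisons share the U87MG arrays, so they are not separate evidence. In RNA from whole cultures, more cells that express a gene and more RNA per cell cannot be told apart.

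PLAUR, the receptor that holds urokinase at the membrane, gave 9.91 and 9.57 in U87MG, 11.13 and 11.79 in U87MGL, and 11.38 and 11.06 in U87MGR. Again every derivative array lay above every U87MG array, and the derivatives overlapped. The 3′ minus 5′ difference of actin splits the arrays in the same way, and its part in the PLAU and PLAUR results was not tested. In limma PLAUR rose 2.78-fold in U87MGR (95% interval 1.82 to 4.26, log2 fold change 1.48, SE 0.26, adjusted p = 0.0357). In U87MGL it rose 3.29-fold (95% interval 2.15 to 5.03, log2 fold change 1.72, SE 0.26, adjusted p = 0.0203).

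**Figure D1:**
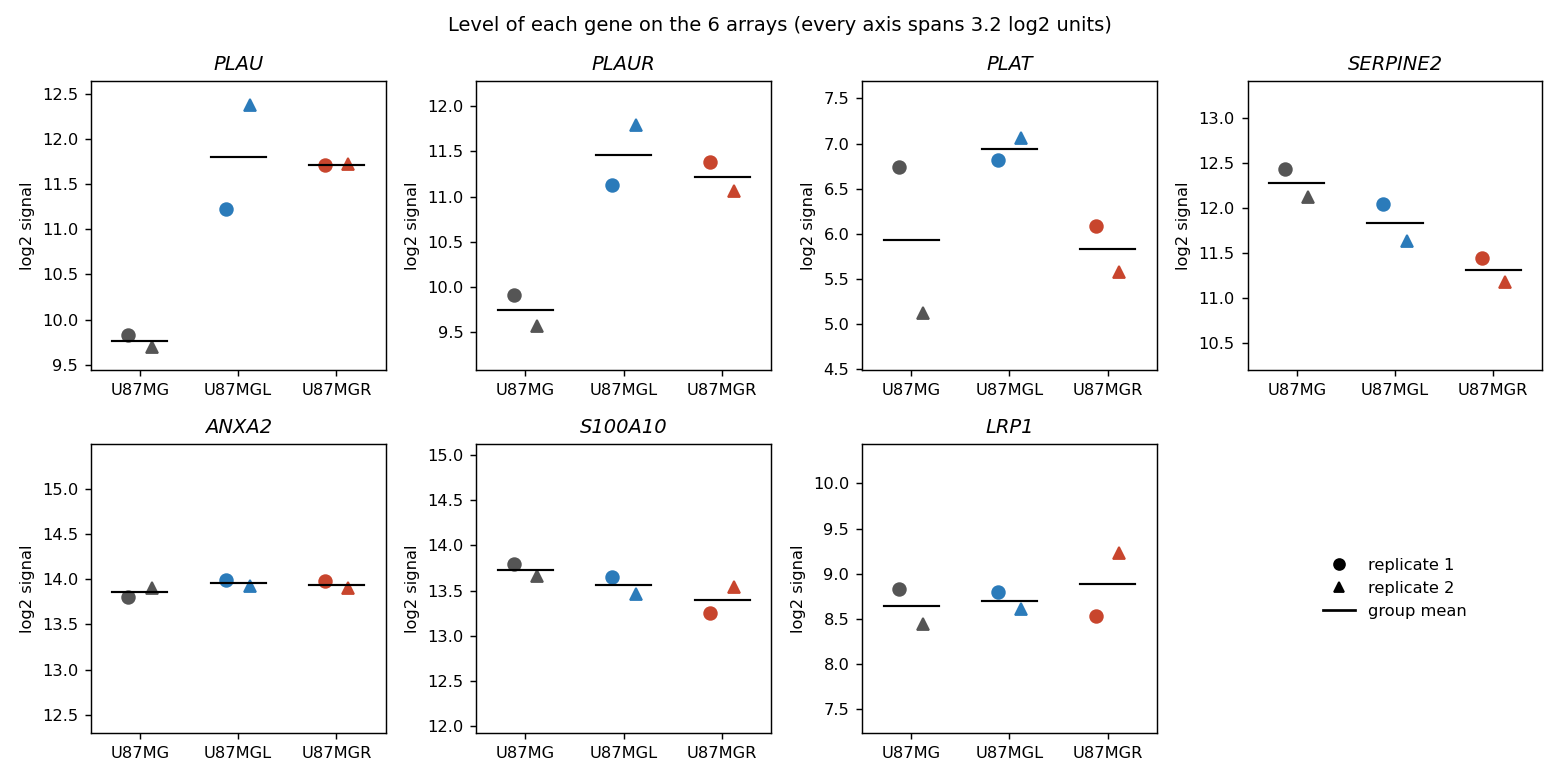
Log2 signal (vertical axes) of the 7 genes in U87MG, U87MGL and U87MGR, with a circle for replicate 1, a triangle for replicate 2 and a bar for the group mean. PLAU and PLAUR lie higher in all 4 derivative arrays than in U87MG, SERPINE2 steps down from U87MG to U87MGL to U87MGR, and PLAT differs more between the U87MG replicates (6.74 and 5.12) than any 2 group means do (largest difference -1.11).

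These were the only calls among the 7 members, 2 of 7 higher and 0 lower in each comparison with U87MG. At an unadjusted p under 0.05 limma gave 2 higher in each and 1 lower, SERPINE2, in U87MGR, where 11.0% of all tested genes were higher and 9.78% lower at that level in U87MGR and 13.2% and 10.1% in U87MGL. Over all tested genes 3.3% were called in U87MGR, 1.86% higher and 1.44% lower, and 4.82% in U87MGL, 3.02% higher and 1.8% lower, while 1.27% were called higher in both. Among the 14513 fold changes PLAU ranked 30th and PLAUR 91st from the top in U87MGR against U87MG, and 56th and 99th in U87MGL against U87MG. The members were chosen with earlier results of these data known, so these counts and ranks are a description and not a test. The median of the 7 members was 0.08 and 0.10 in these comparisons, against -0.01 and -0.02 over all tested genes.

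The question of the series, invasive against non-invasive cells, found no call among the members. PLAU differed by -0.09 on the log2 scale in U87MGR against U87MGL (limma adjusted p = 0.96), with a 95% interval from 0.538 to 1.64-fold. PLAUR differed by -0.24 (limma adjusted p = 0.827), with an interval from 0.553 to 1.29-fold. Both differences were smaller in size than the SD of the U87MGL arrays, 0.82 for PLAU and 0.46 for PLAUR. They were larger than the SD of the U87MGR arrays, 0.0087 and 0.23. Over all genes 0.158% were called in this comparison, 0.0413% higher and 0.117% lower, and at an unadjusted p under 0.05 limma gave 0 members higher and 1 lower, SERPINE2, against 3.91% and 4.94% of all genes.

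The secondary probe sets followed the primary ones in direction for this pair. The other PLAU probe set was higher by 1.98 in U87MGR and 2.13 in U87MGL against U87MG on the log2 scale. The other PLAUR probe sets were higher by 1.53 and 0.90 in U87MGR and by 1.88 and 1.29 in U87MGL. When every probe set was tested on its own, limma gave adjusted p = 0.0672 for the main PLAU and PLAUR probe sets in U87MGR against U87MG. That does not pass the threshold, while the values in U87MGL against U87MG, 0.0479 and 0.0397, do. The other PLAU probe set passed in neither derivative (limma adjusted p = 0.0925 in U87MGR and 0.0657 in U87MGL), nor did the dimmest PLAUR probe set (0.129 and 0.0546). The remaining PLAUR probe set passed only in U87MGL (0.0814 and 0.0439).

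**Figure D2:**
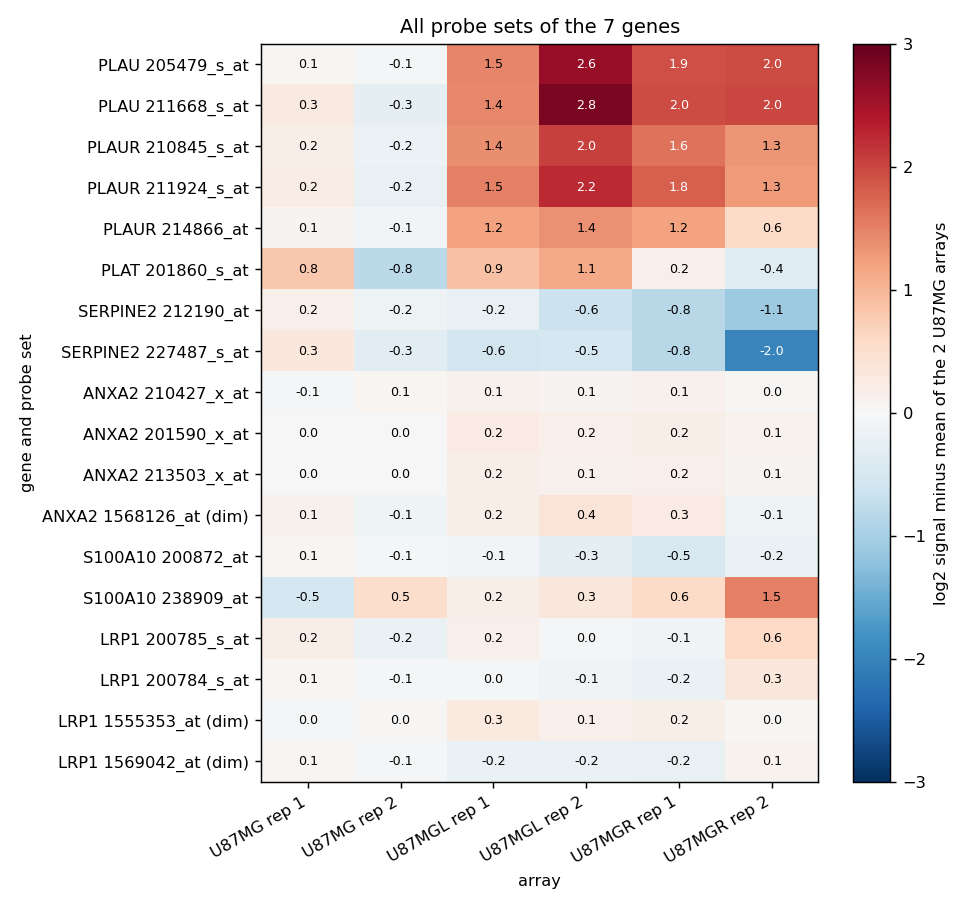
Log2 signal of all 18 probe sets (rows) on the 6 arrays (columns), each minus the mean of the 2 U87MG arrays, with dim marking the 3 probe sets below the filter level. Both PLAU and all 3 PLAUR probe sets are raised on every derivative array, both SERPINE2 probe sets are lowered, and the pair for S100A10 differs in direction.

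The sizes held better than the calls. Within the batch that holds U87MG replicate 1 and U87MGR replicate 2, PLAU was higher by 1.89 and PLAUR by 1.14 in U87MGR on the log2 scale. Within the batch of both U87MGL arrays and U87MGR replicate 1, the derivatives differed by -0.09 in PLAU and -0.08 in PLAUR. With the spike-in batches as a block neither gene was called against U87MG in limma, at adjusted p = 0.156 and 0.161 with 2 batches for U87MGR and 0.493 and 0.51 for U87MGL. With 3 batches the log2 fold changes in U87MGR were the within-batch values again, 1.89 and 1.14, since U87MG replicate 2 is alone in its batch. Those in U87MGL, 1.99 and 1.22, reach U87MG only through the U87MGR arrays and rest on the same U87MG array. The 3-batch values are therefore not separate evidence from the within-batch ones. Leaving out 1 array, the call of PLAU in U87MGR was lost without any one of the U87MG or U87MGR arrays (adjusted p = 0.0554 to 0.202 in limma), and that of PLAUR without U87MG replicate 2 or either U87MGR array (0.09 to 0.168). In U87MGL both calls were lost without U87MG replicate 2, U87MGL replicate 2 or either U87MGR array (0.055 to 0.119 in limma). With 1 array left out the log2 fold changes stayed between 1.89 and 2.01 for PLAU and between 1.30 and 1.65 for PLAUR in U87MGR, and between 1.46 and 2.62 and between 1.39 and 2.05 in U87MGL.

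**Figure D3:**
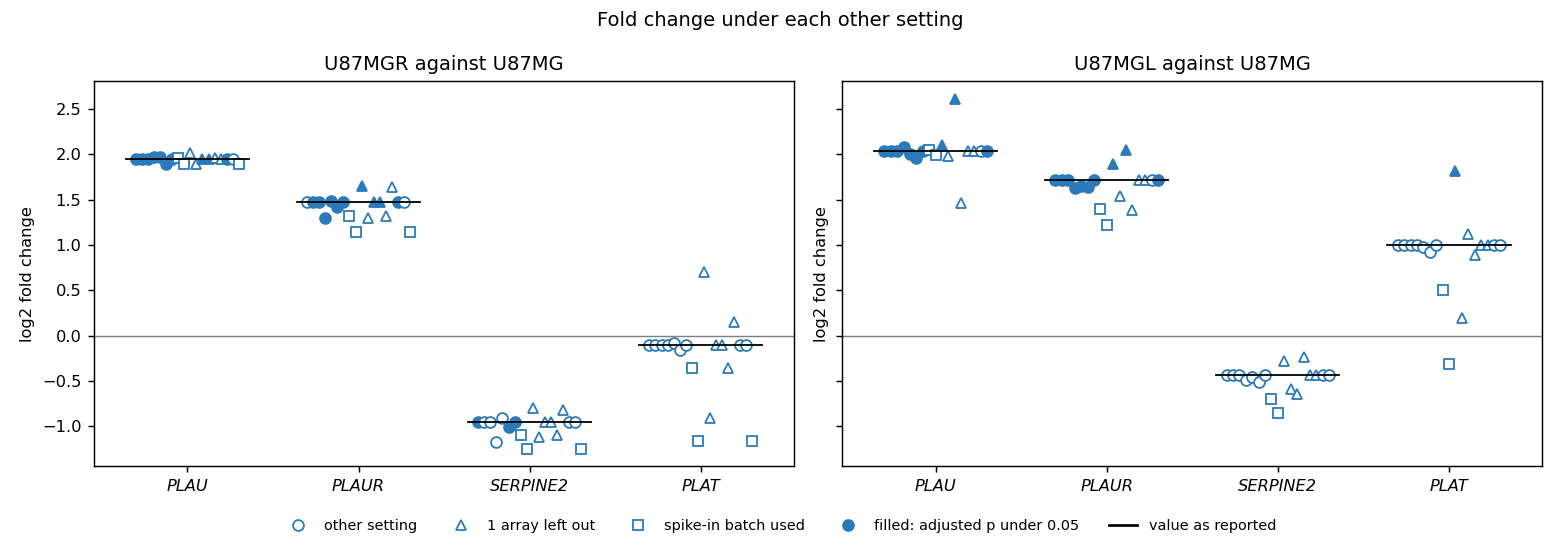
Log2 fold change (vertical axis) of PLAU, PLAUR, SERPINE2 and PLAT against U87MG under every other setting, with a line for the value as reported, squares where spike-in batches were used, triangles where 1 array was left out and filled symbols where limma's adjusted p was under 0.05. PLAU and PLAUR stay above 1 throughout while many of their symbols are open, and PLAT crosses 0 in both comparisons.

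Tissue plasminogen activator was not called in any comparison, and its differences from U87MG turned on single arrays. PLAT had 1 probe set, at 6.74 and 5.12 in U87MG, 6.82 and 7.06 in U87MGL, and 6.09 and 5.58 in U87MGR. The U87MG replicates lay on either side of both U87MGR arrays, with an SD of 1.14, and both U87MGL arrays lay above the other 4. PLAT differed by -1.11 in U87MGR against U87MGL (SE 0.48, 95% interval -2.23 to 0.02, limma adjusted p = 0.577). It differed by -0.10 in U87MGR against U87MG (limma adjusted p = 0.931) and by 1.01 in U87MGL against U87MG (SE 0.48, limma adjusted p = 0.26). Without U87MG replicate 1, U87MGL was higher by 1.81 (limma adjusted p = 0.018) and U87MGR by 0.71, while without U87MG replicate 2 the values were 0.20 and -0.91. Within spike-in batches U87MGR differed by -0.85 against U87MGL and by -1.16 against U87MG. The value of -1.16 is 1 array against 1, U87MGR replicate 2 and U87MG replicate 1.

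The inhibitor gene SERPINE2 ran the other way from the urokinase pair. Protease nexin-1 gave 12.43 and 12.12 in U87MG, 12.04 and 11.63 in U87MGL, and 11.45 and 11.18 in U87MGR. No 2 groups overlapped, in the order U87MG, U87MGL, U87MGR, an order without overlap that 3.2% of all tested genes had, while 15.9% had some order without overlap. The difference of U87MGR from U87MG, -0.96 (SE 0.21, 95% interval -1.46 to -0.46, limma adjusted p = 0.0612), did not pass the threshold. The steps from U87MG to U87MGL (-0.44, SE 0.21, limma adjusted p = 0.266) and from U87MGL to U87MGR (-0.52, SE 0.21, limma adjusted p = 0.546) did not pass either. Each step was larger than the SD of any group, 0.19 to 0.29.

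The dimmer SERPINE2 probe set differed by -1.40 in U87MGR and -0.55 in U87MGL against U87MG, with its lowest array, 4.13, in U87MGR replicate 2. Within spike-in batches SERPINE2 differed in U87MGR by -1.25 against U87MG and by -0.39 against U87MGL. The value of -1.25 is 1 array against 1, the lower U87MGR array, replicate 2, and the higher U87MG array, replicate 1. U87MGR replicate 2 is also the array with the GAPDH 3′ minus 5′ difference of 0.24. Limma called the difference of U87MGR from U87MG under 3 of 17 other settings, with the replicate block (adjusted p = 0.0432), with centred arrays (0.0469) and with trended variances (0.0417), and its adjusted p over those settings lay between 0.0417 and 0.279.

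**Figure D4:**
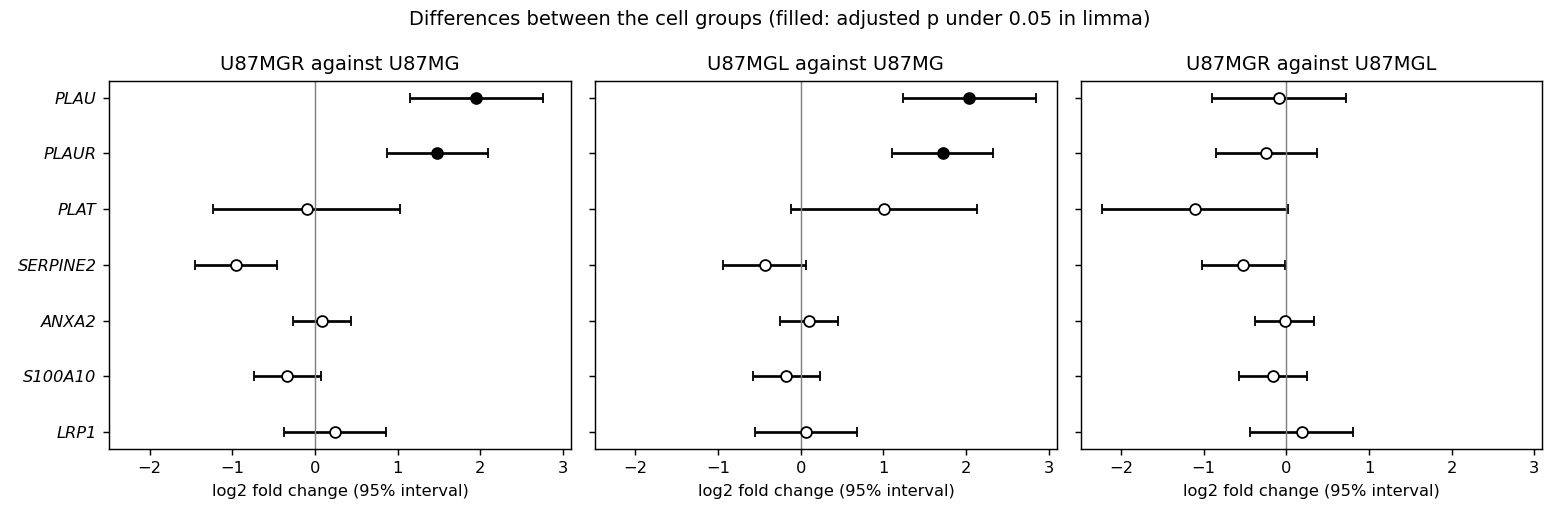
Log2 fold change with its 95% interval (horizontal axes) for the 7 genes in the 3 comparisons, filled where limma's adjusted p was under 0.05. PLAU and PLAUR are filled against U87MG for both derivatives, and no gene is filled between the derivatives.

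The annexin A2 complex, a docking site for plasminogen and tissue activator, was measured through both subunits. ANXA2, the calcium-binding subunit, gave 13.80 and 13.91 in U87MG, 13.99 and 13.93 in U87MGL, and 13.98 and 13.90 in U87MGR. Its differences lay between -0.02 and 0.10 on the log2 scale (limma adjusted p = 0.713 to 0.979), and the widest 95% interval end was 0.46. Both other bright ANXA2 probe sets differed by 0.12 to 0.20 against U87MG. All 3 are of a kind that can also bind related transcripts, and they lay near the highest value on any array, 14.6, where changes can be compressed. The part of either in these values was not tested.

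S100A10, the light chain that carries the plasminogen-binding end of the complex, gave 13.80 and 13.67 in U87MG, 13.65 and 13.47 in U87MGL, and 13.25 and 13.54 in U87MGR. It differed by -0.34 in U87MGR against U87MG (SE 0.17, limma adjusted p = 0.327), by -0.17 in U87MGL and by -0.16 between the derivatives. Its dimmer probe set went the opposite way, at 7.35 and 8.40 in U87MG, 8.04 and 8.21 in U87MGL, and 8.45 and 9.38 in U87MGR. That is a difference of 1.04 in U87MGR against U87MG (limma adjusted p = 0.257 over probe sets), with U87MGR replicate 2 the highest array. No direction can be given for S100A10, since its 2 probe sets disagree.

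LRP1, the endocytic receptor that clears activator and inhibitor complexes, gave 8.84 and 8.44 in U87MG, 8.79 and 8.61 in U87MGL, and 8.53 and 9.23 in U87MGR. All 3 groups overlapped, and U87MGR replicate 2 was the highest array. The differences were 0.24 in U87MGR and 0.06 in U87MGL against U87MG and 0.18 between the derivatives (SE 0.26 each, limma adjusted p = 0.645, 0.914 and 0.876). Without U87MGR replicate 2 the first and the last of these were -0.11 and -0.16. The second bright LRP1 probe set differed by 0.07, -0.07 and 0.14.

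Counted by overlap alone, 4 members lay higher and 2 lower in U87MGL than in U87MG, where 28.1% and 28.3% of all tested genes did so, 56.4% together. In U87MGR 2 members lay higher and 2 lower than in U87MG, against 24.2% and 24.2% of all genes, 48.4% together. Between the derivatives 0 lay higher and 2 lower in U87MGR, against 23.3% and 23.3%, 46.6% together. With 2 arrays a group, non-overlap was common among all genes.

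Further genes of the system were read from 7 lists with 76 entries, of which 66 were tested. Against U87MG, 1 of the 66 was called higher in U87MGR and 4 in U87MGL, with 0 lower in each, and 0 were called either way between the derivatives. Over all tested genes 1.86% and 3.02% were called higher, so the count in U87MGR is no more than the background, and the count in U87MGL was not tested against it. At an unadjusted p under 0.05 limma gave 9 higher and 4 lower in U87MGR, 14 and 6 in U87MGL, and 2 and 2 between the derivatives. The shares of all tested genes at that level were 11.0% and 9.78%, 13.2% and 10.1%, and 3.91% and 4.94%, so that most of these counts lie near the background.

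All calls but 1 lay among the proteins that plasmin or an activator cuts, the substrates. Against U87MG, 1 of 13 tested substrates was called higher in U87MGR and 3 in U87MGL, with 0 lower. Over all tested genes 1.86% and 3.02% were called higher, and the substrate counts were not tested against these shares. At an unadjusted p under 0.05 limma gave 4 higher and 2 lower in U87MGR, and 5 and 2 in U87MGL. The lower ones were FN1 (-0.61 in U87MGR and -0.82 in U87MGL on the log2 scale) and LAMC1 (-0.72 and -0.48). VCAN, the brain matrix proteoglycan versican, lay at 9.28 and 9.53 in U87MG, 11.36 and 11.38 in U87MGL, and 11.05 and 11.62 in U87MGR. It rose 3.82-fold in U87MGR (log2 fold change 1.93, SE 0.22, limma adjusted p = 0.0184) and 3.92-fold in U87MGL (1.97, SE 0.22, limma adjusted p = 0.0104), with no overlap with U87MG. MMP1, a collagenase whose pro-form plasmin can cut, lay at 6.72 and 6.18 in U87MG, 8.37 and 9.60 in U87MGL, and 7.70 and 8.36 in U87MGR.

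MMP1 rose 5.81-fold in U87MGL (limma adjusted p = 0.0255), and its difference in U87MGR was 1.58 on the log2 scale (limma adjusted p = 0.0926). HGF, the ligand of MET, which urokinase can activate, rose 2.73-fold in U87MGL (log2 fold change 1.45, limma adjusted p = 0.0388) and differed by 1.31 in U87MGR (limma adjusted p = 0.0589). Between the derivatives VCAN differed by -0.04, HGF by -0.13 and MMP1 by -0.96, none of them called.

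With 2 or 3 spike-in batches as a block limma called 0 genes of all tested in U87MGL against U87MG, so each call in U87MGL was lost there. Under 2 batches its adjusted p was 0.155 for VCAN, 0.38 for MMP1, 0.492 for HGF and 0.68 for ETV5, a regulator described next. The log2 fold changes of VCAN, MMP1 and HGF under 3 batches were 2.66, 2.92 and 1.24. In U87MGR the call of VCAN was lost with 2 batches (limma adjusted p = 0.0557) and it was higher by 2.34 within the batch. VCAN was called in 14 of 17 other settings in each derivative. Its call in U87MGR was lost without either U87MGR array (limma adjusted p = 0.0557 and 0.143), and its call in U87MGL without U87MGL replicate 2 (0.0794). The call of MMP1 was lost without U87MG replicate 2, U87MGL replicate 2 or either U87MGR array (0.0598 to 0.107 in limma). HGF was called in 7 of 17 other settings and lost its call without any 1 array other than U87MG replicate 1 (0.0672 to 0.173 in limma). The median of the 13 tested substrates was 0.03 in U87MGR and 0.22 in U87MGL, far below the values of these genes.

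Of 17 tested regulators of urokinase or its receptor, 1 was called: ETV5, an ETS factor of the PEA3 group, rose 1.81-fold in U87MGL (log2 fold change 0.85, SE 0.18, limma adjusted p = 0.0489) and differed by 0.71 in U87MGR (limma adjusted p = 0.0856). Its call held in 2 of 17 other settings and was lost whichever array was left out (0.0696 to 0.244 in limma). None of the 6 AP-1 subunits on that list, JUN, JUNB, JUND, FOS, FOSL1 and FOSL2, was called in limma. Their log2 fold changes lay between -0.64 and 1.77 in U87MGR and between -0.53 and 0.67 in U87MGL against U87MG (lowest adjusted p = 0.159 and 0.202 in limma). The precision was poorest for FOS, with an SE of 1.59, and the upper ends 1.77 and 0.67 are its values. FOS lay at 10.10 and 4.79 in U87MG (SD 3.75), 8.53 and 7.70 in U87MGL, and 7.94 and 10.50 in U87MGR. JUND differed in both derivatives at an unadjusted p under 0.05, by -0.64 and -0.53.

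The lists of inhibitors, binding proteins, receptor partners, clearance receptors and activating proteases held no called gene. SERPINI1, neuroserpin, an inhibitor of tissue plasminogen activator, differed by 1.62 in U87MGR (SE 0.36, limma adjusted p = 0.0612) and 1.25 in U87MGL (limma adjusted p = 0.0972) against U87MG, opposite in sign to SERPINE2. CTSB, the lysosomal protease cathepsin B, which can cut pro-urokinase, differed by -0.76 in U87MGR (limma adjusted p = 0.0805) and -0.87 in U87MGL (limma adjusted p = 0.0506). ITGA5, the alpha chain of the fibronectin receptor, differed by 0.63 and 0.87, CKAP4, which binds tissue plasminogen activator, by 0.19 and 0.56, and VLDLR, a relative of LRP1, by 0.32 and 1.35. Within the spike-in batch the differences of U87MGR from U87MG were 0.83 for SERPINI1, -0.72 for CTSB, 0.19 for ITGA5, 0.18 for CKAP4 and -0.78 for VLDLR. With 3 batches as a block SERPINI1 differed by 0.18 in U87MGL.

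Microglia and endothelium make components of this system too, and no marker of either was called. Of 10 microglia markers 5 were bright enough to test and 0 were called (limma, 0 higher and 1 lower in each derivative against U87MG at an unadjusted p under 0.05). Their summed signal was 8.82 to 8.88 in U87MGL and 8.76 on both U87MGR arrays against 8.89 to 9.07 in U87MG on the log2 scale. P2RY12, CX3CR1, PTPRC, C1QB and TYROBP lay below the filter level on average. CSF1R lay above it at 7.31 to 7.85, AIF1 at 5.65 to 6.59 and TMEM119 at 4.57 to 7.07, with ITGAM and C1QA nearer to it. Of 10 endothelial markers 7 were tested and 0 were called (0 at an unadjusted p under 0.05). Their summed signal was 8.55 to 8.61 in U87MGL, 8.67 to 8.77 in U87MGR and 8.70 to 8.97 in U87MG. CDH5, TIE1 and ERG lay below the filter level on average. PECAM1 lay above it at 6.12 to 6.51, TEK at 5.65 to 6.66, EGFL7 at 5.78 to 6.39 and VWF at 5.44 to 5.72. KDR lay at 5.13 to 6.67, CLDN5 at 4.76 to 6.16 and ESAM at 4.96 to 5.14. Neuron and oligodendrocyte markers had 0 calls among 6 and 3 tested. The summed neuron signal was 10.12 to 10.20 in U87MG, 10.27 to 10.42 in U87MGL and 10.30 to 10.31 in U87MGR. For oligodendrocyte markers it was 10.06 to 10.15, 10.04 to 10.06 and 10.05 to 10.32. The brightest of these markers were SNAP25, at 9.21 to 9.73, and CNP, at 9.70 to 10.05. At an unadjusted p under 0.05 limma gave 2 neuron markers higher in U87MGR against U87MG, and 1 higher and 1 lower in U87MGL. It also gave 1 oligodendrocyte marker lower in U87MGL. Between the derivatives 1 neuron marker, SYT1, was higher in U87MGR at that level, by 0.75 on the log2 scale (limma adjusted p = 0.273). Of all tested genes, 11.0% were higher and 9.78% lower in U87MGR against U87MG, and 13.2% and 10.1% in U87MGL. Between the derivatives 3.91% were higher in U87MGR. The host brain was mouse and the array probes are human, and how far they read mouse RNA was not tested.

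Over the 6 arrays, PLAUR correlated with PLAU at r = 0.98, the 18th highest of 3160 genes whose range was at least 1 on the log2 scale. The 3 genes most like PLAU were NRG1 (r = 0.994), DDX10 (0.994) and NEDD4L (0.993), and those most like PLAUR were AFG2A (0.997), CHAC2 (0.996) and SERPIND1 (0.996). With 3 groups of 2 arrays, r of at least 0.95, a lower floor than the values above, was not rare. It was reached by 113 of these genes, or 3.58%, with PLAU and by 164, or 5.19%, with PLAUR. The arrays share the split between U87MG and its derivatives, and the values are a description of that pattern.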

How the data were processed

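Biotin-labelled cRNA was measured on 6 single-colour arrays, 2 per group, grouped by their titles. The authors deposited a log2 signal for each of 54675 probe sets, with array medians nearly alike; the normalization method is not stated in the labels used here. Values lay between 2.38 and 14.6. No scanner data were used here, so saturation and background could not be read per spot. Probe sets were named through the platform's gene table (41097 with 1 symbol, 1801 with several, 11777 with none). A gene was its brightest 1-symbol probe set, tested if its mean over the arrays was at least 4.73, the 40th percentile of probe set means.

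Limma 3.58.1 in R 4.3.3 fitted 1 mean per group to all 6 arrays, with 3 residual and 4.05 prior degrees of freedom. Tests were two-sided, adjusted by Benjamini-Hochberg over 14513 genes and called under 0.05. The median SE of a log2 fold change was 0.19, and the number of arrays limits this precision. The titles call the arrays biological replicates without naming separate cultures, so p-values measure the spread between these samples. An exact test of 2 against 2 cannot go below p = 0.333 and was not used. The code was tested on simulated data.

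Members, lists and spike-in batches were chosen with earlier results of these data known. Named were all members, every called gene of the other lists or else the largest change, and the 3 genes most correlated with each called member. Of the 76 list entries, 70 had a 1-symbol probe set. Alternatives were the replicate block, filters, probe set choice, normalization, variance model, groups in the fit, spike-in batches and leaving out each array.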

Additional observations from a re-analysis of the deposited data

How the results depend on the processing

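Between the derivatives 0 members were called under all 17 alternatives. Against U87MG the count of 2 became 0 with 2 or 3 spike-in batches in both derivatives, 0 in U87MGR with each probe set tested, and 0 in U87MGL with only the compared groups fitted. Leaving out 1 array gave 0 to 2 in U87MGR and 0 to 3 in U87MGL. With the replicate block the count stayed 2 in both, with SERPINE2 (-0.96) in place of PLAUR (limma adjusted p = 0.0533) in U87MGR; the numbers did not pair the samples (correlations of deviations -0.091, 0.11 and 0.013). The cause of these changes was not tested. The signs of PLAU, PLAUR and SERPINE2 against U87MG held under every alternative run. The reversed values that follow are log2 fold changes. Between the derivatives, leaving out 1 array gave -0.67 to 0.49 for PLAU, -0.57 to 0.086 for PLAUR, -0.061 to 0.016 for ANXA2, -0.16 to 0.53 for LRP1, -0.12 to 0.34 for CTSB, -0.32 to 0.25 for VCAN, -0.29 to 0.026 for HGF and -0.30 to 0.012 for ETV5. With 2 or 3 batches ANXA2 was 0.016, LRP1 -0.16 and ETV5 0.012, quantile normalization gave ANXA2 0.030 and VCAN 0.028, centring gave ANXA2 0.0027, and the mean of probe sets gave S100A10 0.31. In U87MGR against U87MG, leaving out 1 array gave -0.91 to 0.71 for PLAT, -0.11 to 0.59 for LRP1 and -0.24 to 0.88 for VLDLR. VLDLR was -0.24 with 2 batches and -0.78 with 3, and S100A10 was 0.35 with the mean of probe sets. In U87MGL against U87MG, leaving out 1 array gave -0.14 to 0.26 for LRP1, which was -0.029 with quantile normalization and -0.017 with centring. With 3 batches PLAT was -0.31, VLDLR -0.30 and S100A10 0.042, with 2 batches S100A10 was 0.11, and with the mean of probe sets it was 0.038. Signal over background could not be read from these values.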
